A study of Mus musculus with 12 samples.

Results

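The major histocompatibility complex (MHC) class II genes were followed in the seminal vesicles of male C57BL/6 mice, collected at week 10 and measured on Affymetrix arrays as log2 expression. The set was defined by name, as the probe sets whose only platform symbol is one of 10 listed genes. It held 9 genes of 30063 named on the array, with 1 probe set each: H2-Ab1, H2-Aa, H2-Eb1, H2-Eb2, H2-DMa, H2-DMb1, H2-Oa, H2-Ob and Ciita. The listed gene Cd74, which encodes the invariant chain, shares its probe set with a microRNA symbol and was not analysed here. There were 4 groups of 3 arrays, 12 in all. WT_DES came from wild-type mice that had received diethylstilbestrol (DES), an estrogen made by synthesis, as newborns: 2 µg daily for each pup, injected under the skin in corn oil from day 1 to day 5. WT_vehicle came from wild-type mice given corn oil alone. The groups aERKO_DES and aERKO_vehicle received these treatments but came from mice labelled as knockouts of estrogen receptor alpha, the receptor encoded by Esr1. The labels do not say which allele was used, or whether each array stands for its own animal. The p-values therefore reflect the spread among these arrays alone, and that spread may be technical.

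MHC class II molecules are pairs of an alpha and a beta chain that display peptides from endosomes to CD4 T cells. Dendritic cells, macrophages and B cells make them constitutively or on activation, and epithelial cells can be induced to make them by interferon gamma. Transcription depends on CIITA, a coactivator that does not bind DNA itself but is recruited by factors sitting on the X and Y boxes of class II promoters. The invariant chain guards the empty groove, H2-DM exchanges its last fragment for antigenic peptide, and H2-O restrains H2-DM. C57BL/6 mice carry a defective H2-Ea gene, so that their surface class II molecule is I-A, the pair of H2-Aa and H2-Ab1.

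Promoters are shown because their X and Y boxes are where the shared factors are known to bind. Whether these boxes have a part in the class II differences was not tested. RefSeq promoters of build GRCm38.p6, from 250 bases before to 50 bases after a gene's start, were given for 7 of the 9 genes, with 2 starts for H2-DMa. All lie on chromosome 17. Each line below gives the 56 bases around the Y box 5′ to 3′ on the gene's strand, with the Y box letters TGATTGG, the X box letters AGNAAC and the X2 letters TGACGTCA in capitals.
H2-Aa (chr17:34287863-34287918, minus strand): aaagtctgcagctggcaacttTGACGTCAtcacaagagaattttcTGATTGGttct
H2-Eb1 (chr17:34305761-34305816, plus strand): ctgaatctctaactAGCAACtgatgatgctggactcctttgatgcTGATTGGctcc
H2-Eb2 (chr17:34325528-34325583, plus strand): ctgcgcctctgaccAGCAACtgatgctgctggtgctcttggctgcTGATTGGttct
H2-DMb1 (chr17:34153083-34153138, plus strand): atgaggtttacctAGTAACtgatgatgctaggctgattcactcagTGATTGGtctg
H2-Oa (chr17:34092289-34092344, plus strand): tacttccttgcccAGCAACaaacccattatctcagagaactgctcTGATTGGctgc
H2-Ob (chr17:34238801-34238856, plus strand): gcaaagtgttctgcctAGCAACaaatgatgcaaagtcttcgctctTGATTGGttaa
The Y box letters, searched on both strands, were in 6 of the 7 genes and in 7.82% of all 32851 promoters of the table. X box letters followed by Y box letters, with 15 to 45 bases between them, were in 5 of the 7 genes and in 0.310% of all promoters. In these 5 the gap was 23 to 26 bases. The X box letters alone are common and were in 48.1% of all promoters. H2-Aa lacked them but carried the X2 letters, found in 1.79% of promoters, in the stretch before its Y box. Neither H2-DMa window held the Y box letters, and their GC contents were 73.0% and 39.0%, against 40.7% to 54.7% for the other 6 genes. The letters were chosen after these promoters had been read, and a match is a description of sequence, not a measured binding site.

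Every class II gene of the set was higher in the wild-type gland after neonatal DES. At an adjusted p below 0.05 in limma, 9 of 9 rose in WT_DES relative to WT_vehicle, where 20.7% of the 20102 genes tested were called higher. A difference of at least 2-fold was reached by 6 of the 9, against 4.59% of the genes tested. The 3 WT_DES arrays lay above the 3 WT_vehicle arrays for each of the 9, which held for 25.8% of the genes tested. The median log2 difference was 1.34, the value of H2-Ob, against -0.05 over all genes tested. All 9 passed the filter on dim genes, but H2-Eb2 and H2-Ob exceeded the array median on 2 and 0 of the 9 arrays outside WT_DES. Both could pass only through WT_DES, so that a difference was built into their passing. In RNA of a whole gland, more class II cells and more class II RNA per cell cannot be told apart.

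**Figure D1:**
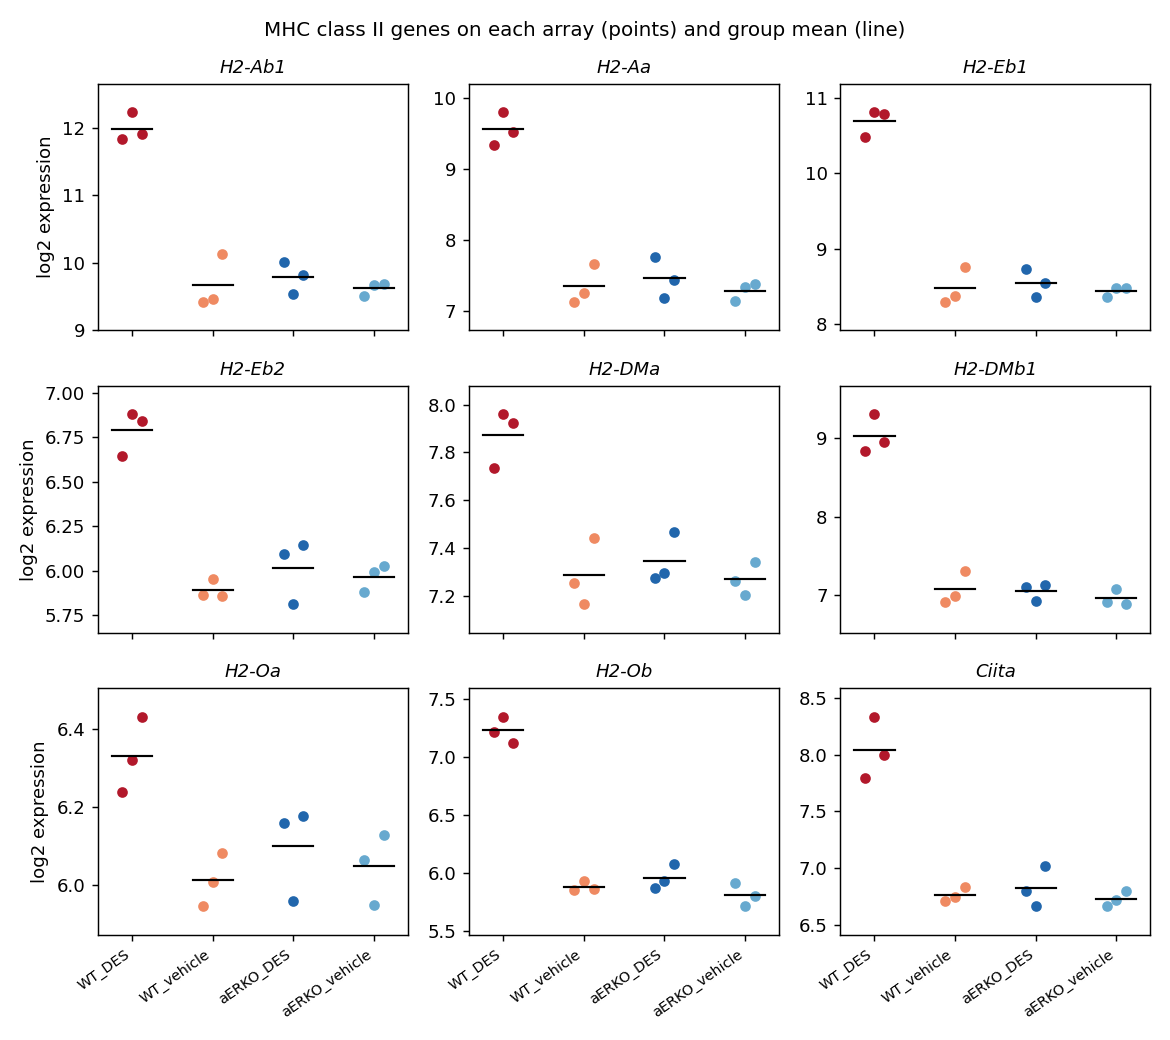
Log2 expression of the 9 MHC class II genes on each array, with groups on the horizontal axis, a point for each of 3 arrays and a line at the group mean. The WT_DES arrays lie above the arrays of the other groups in every panel, and the vertical scale differs between panels.

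Of the 4 chains of the peptide-binding pairs, H2-Ab1, H2-Aa and H2-Eb1 had the largest differences of the set, and H2-Eb2 a smaller one. H2-Ab1, the I-A beta chain, read 11.83, 12.24 and 11.91 in WT_DES, against 9.42, 9.47 and 10.13 in WT_vehicle. The lowest WT_DES array was thus well above the highest WT_vehicle array, although replicate 3 of WT_vehicle stood above the other two. The log2 difference was 2.32 ± 0.18 (SE), a 4.99-fold rise with a 95% interval of 3.82-fold to 6.53-fold (adjusted p = 6.16e-07). H2-Aa, the I-A alpha chain, read 9.34, 9.80 and 9.52 in WT_DES, against 7.13, 7.25 and 7.67 in WT_vehicle. Its difference of 2.20 ± 0.17 (4.60-fold, adjusted p = 4.96e-07) was close to that of its partner chain. H2-Eb1, the beta chain of the I-E pair, read 10.48, 10.81 and 10.78 in WT_DES, against 8.30, 8.37 and 8.77 in WT_vehicle. It rose by 2.21 ± 0.13 (4.63-fold, adjusted p = 5.50e-08), so that the transcript of a chain without a partner in this strain moved as far as the I-A chains did. H2-Eb2, a second E beta gene, read 6.64, 6.88 and 6.84 in WT_DES, against 5.86, 5.96 and 5.86 in WT_vehicle. Its rise was 0.90 ± 0.09 (1.86-fold, adjusted p = 1.09e-05), from a WT_vehicle level only 0.59 above the mean of the background controls. H2-Ea, the alpha chain gene that would complete I-E and which RefSeq lists as a transcribed pseudogene, averaged 5.02 ± 0.23 (SD, n = 3) in WT_DES and 5.24 ± 0.07 in WT_vehicle. It lay below the array median on all 12 arrays and was not tested.

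The subunits of the peptide editor H2-DM rose unequally. H2-DMb1, a DM beta chain, read 8.84, 9.30 and 8.95 in WT_DES, against 6.92, 6.99 and 7.31 in WT_vehicle, a rise of 1.96 ± 0.13 (3.88-fold, adjusted p = 1.24e-07). H2-DMa, the DM alpha chain, read 7.73, 7.96 and 7.92 in WT_DES, against 7.25, 7.16 and 7.44 in WT_vehicle. Its rise of 0.59 ± 0.09 (1.5-fold, adjusted p = 0.000247) was the smaller by 1.37 on the log2 scale. The array-by-array difference between beta and alpha chain was 1.16 ± 0.16 (SD, n = 3) in WT_DES and -0.21 ± 0.11 in WT_vehicle, without overlap. H2-DMb2, a close copy of H2-DMb1 that is not in the set, rose by 1.43 ± 0.10 (2.70-fold, adjusted p = 2.20e-07). Whether probes of these copies read each other's transcripts was not tested.

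The chains of H2-O, the DM inhibitor found mainly in B cells and some dendritic cells, also differed in their rise. H2-Ob, its beta chain, read 7.22, 7.34 and 7.12 in WT_DES, against 5.85, 5.93 and 5.87 in WT_vehicle. This was a rise of 1.34 ± 0.08 (2.54-fold, adjusted p = 6.54e-08) over a WT_vehicle level 0.58 above the mean of the background controls. H2-Oa, the alpha chain, read 6.24, 6.32 and 6.43 in WT_DES, against 5.94, 6.01 and 6.08 in WT_vehicle. Its rise of 0.32 ± 0.08 (1.25-fold, adjusted p = 0.00750) was the smallest of the set. The beta minus alpha difference was 0.90 ± 0.18 in WT_DES and -0.13 ± 0.08 in WT_vehicle (SD, n = 3 each), again without overlap. H2-Ob passed the filter only through WT_DES, so that a rise of the beta chain was built in. H2-Oa in WT_vehicle lay only 0.71 above the background controls, so its rise may be understated. The inequality in H2-O is therefore less certain than that in H2-DM. The sizes for H2-DMa and H2-Oa depended on array scaling: with arrays shifted to the hybridization controls, RNAs added before hybridization, they were 0.94 and 0.68. Both genes were called under each scaling tried.

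Ciita, the coactivator on which the promoters depend, rose with its targets but by less than the I-A chains. It read 7.79, 8.34 and 8.0 in WT_DES, against 6.71, 6.74 and 6.83 in WT_vehicle. The log2 difference was 1.28 ± 0.12 (2.43-fold, 95% interval 2.02-fold to 2.93-fold, adjusted p = 5.12e-06). The array-by-array gap between H2-Ab1 and Ciita was 3.95 ± 0.08 in WT_DES and 2.91 ± 0.33 in WT_vehicle (SD, n = 3 each), and the groups did not overlap. In WT_vehicle Ciita lay 1.46 above the mean of the background controls, H2-Aa 2.04 and H2-Ab1 4.37. The rise of the dimmer Ciita may thus be the more understated.

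Ranked by their log2 difference, the 9 genes fell into steps. H2-Ab1 (2.32), H2-Eb1 (2.21) and H2-Aa (2.20) did not differ from each other beyond their spread, since the array-by-array gap between neighbours overlapped between WT_DES and WT_vehicle. The gap from H2-Aa to H2-DMb1 (1.96) did not overlap, nor did that from H2-DMb1 to H2-Ob (1.34). H2-Ob and Ciita (1.28) overlapped. The steps from Ciita to H2-Eb2 (0.90), from H2-Eb2 to H2-DMa (0.59) and from H2-DMa to H2-Oa (0.32) did not. This order is a description of differences on 3 arrays against 3, and the levels of different probe sets were not compared. In WT_vehicle H2-Ob, H2-Eb2 and H2-Oa lay only 0.58, 0.59 and 0.71 above the mean of the background controls, so their differences may be understated and their places in the order are not settled. H2-Eb2 and H2-Ob, in addition, passed the filter only through WT_DES.

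In aERKO mice DES was not followed by a detected difference in any class II gene. H2-Ab1 read 10.01, 9.54 and 9.82 in aERKO_DES, against 9.51, 9.67 and 9.69 in aERKO_vehicle, and the groups overlapped. H2-Aa read 7.76, 7.19 and 7.44 in aERKO_DES, against 7.14, 7.33 and 7.38 in aERKO_vehicle. Ciita read 6.80, 6.66 and 7.02 in aERKO_DES, against 6.67, 6.72 and 6.80 in aERKO_vehicle. For each of these genes replicate 1 or 3 of aERKO_DES was the highest of the 6 aERKO arrays, while replicate 2 lay among or below most of the aERKO_vehicle arrays. The 9 log2 differences were all above 0 but small, 0.05 (H2-Oa) to 0.18 (H2-Aa). Their 95% intervals included 0 and reached no higher than 0.56 (H2-Ab1), which is below the lower bound of the H2-Ab1 difference in WT, 1.93. None of the 9 was called by limma (adjusted p = 0.999 for each), and 0 of the 9 had an unadjusted p below 0.05. Over all genes tested, 0% were called in either direction and 1.31% had an unadjusted p below 0.05. No member's aERKO_DES arrays all lay above its aERKO_vehicle arrays, which held for 1.56% of the genes tested.

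**Figure D2:**
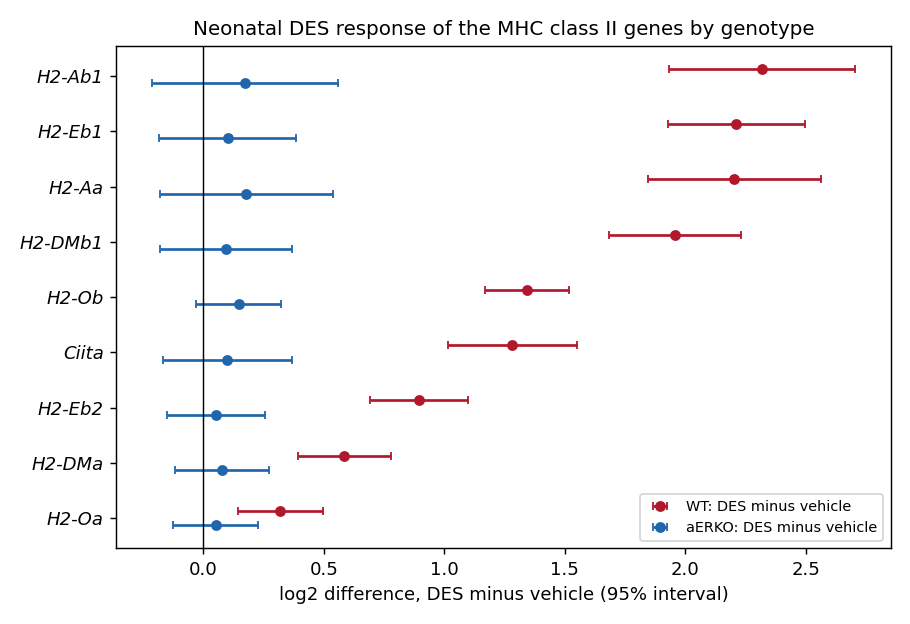
Log2 difference between DES and vehicle for each class II gene, with the 95% interval from limma, in WT (red) and aERKO (blue), ordered by the difference in WT. The WT differences run from 0.32 to 2.32, whereas the aERKO differences lie between 0.05 and 0.18 with intervals that include 0.

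The response to DES differed between the genotypes for 8 of the 9 genes. The interaction, the response in aERKO minus that in WT, was negative for all 9, with 8 called lower where 14.1% of the genes tested were called lower. H2-Eb2 and H2-Ob are among the 8, and since they passed the filter only through WT_DES their interaction was built in. It was largest for H2-Ab1, at -2.15 ± 0.25 (SE, adjusted p = 6.05e-05). H2-Oa did not pass, at -0.27 ± 0.11 with an adjusted p of 0.105 and a 95% interval of -0.52 to -0.02 before adjustment. Set directly against each other, aERKO_DES was lower than WT_DES for 9 of 9, where 24.6% of the genes tested were called lower. For H2-Eb2 and H2-Ob this direction too was fixed by the filter. This comparison shares its WT_DES arrays with the one above, and its differences ran from -2.20 (H2-Ab1) to -0.23 (H2-Oa). For H2-Oa the call (adjusted p = 0.0305) was lost with arrays at a common median (-0.15, adjusted p = 0.141), in a fit of only these groups (adjusted p = 0.0844), and without replicate 2 of WT_DES (adjusted p = 0.0620), replicate 3 of WT_DES (adjusted p = 0.0944) or replicate 2 of aERKO_DES (adjusted p = 0.131).

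Without DES, the genotype was not accompanied by a detected class II difference. The differences between aERKO_vehicle and WT_vehicle ran from -0.11 (H2-DMb1) to 0.07 (H2-Eb2), with 95% intervals between -0.44 and 0.33 across the set. None of the 9 was called by limma (adjusted p = 1.00 for each) and 0 of 9 had an unadjusted p below 0.05. Of all genes tested, 0.0249% were called and 4.30% had an unadjusted p below 0.05. The 3 groups outside WT_DES thus had similar measured levels: H2-Ab1 averaged 9.79 ± 0.24 in aERKO_DES, 9.62 ± 0.10 in aERKO_vehicle and 9.67 ± 0.40 in WT_vehicle (SD, n = 3 each).

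Within a group many class II genes were highest on the same array, but not in every group. In aERKO_DES replicate 1 was the highest for 3 genes (H2-Ab1, H2-Aa and H2-Eb1) and replicate 3 for the other 6. In aERKO_vehicle replicate 3 was the highest for 7. How many of all genes tested were highest on each array was not counted. Replicate 3 of WT_vehicle was the highest of its group for 7 of the 9 genes, and H2-Ab1 there was 0.46 above the group mean. On that array the mean of the 3 large chains H2-Ab1, H2-Aa and H2-Eb1 was 8.85, against 8.28 and 8.36 on the other WT_vehicle arrays. The mean log2 level of 13 macrophage markers was 7.64 on the same array and 7.54 and 7.43 on the others, and that of 14 B cell markers was 6.29, against 6.30 and 6.27. The T cell (6.58, against 6.43 and 6.47), dendritic cell (6.59, against 6.48 and 6.54) and epithelial (9.67, against 9.63 and 9.65) lists were also highest there. The plasma cell (7.37, against 7.43 and 7.40) and neutrophil (5.76, against 5.77 and 5.80) lists were lowest there. Without this array the DES difference in WT was 2.55 for H2-Ab1, 2.36 for H2-Aa and 2.35 for H2-Eb1, and all 9 calls stood. Within WT_DES, replicate 2 was the highest for 8 of the 9 genes and replicate 1 the lowest for 8. The macrophage marker level was highest on replicate 2 as well, at 9.64, against 9.26 and 9.27 on replicates 1 and 3. So were the levels of the T cell (7.26), neutrophil (8.24), dendritic cell (6.87), endothelial (8.24), epithelial (9.95) and smooth muscle and fibroblast (11.3) lists. Replicate 2 of WT_DES also had the lowest background controls (4.70) and hybridization controls (11.2) of all 12 arrays. The B cell list was highest on replicate 3, at 7.42, against 7.10 and 7.37 on replicates 1 and 2. The plasma cell list was lowest on replicate 2, at 8.15, against 8.20 and 8.28 on replicates 1 and 3. What part such cells have in the class II differences was not tested.

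The class II genes were next set beside their neighbours on chromosome 17, in the order RefSeq gives. The 14 tested genes listed for the region are 8 members of the set and 6 neighbours. As deposited, 5 of the 6 neighbours were called higher in WT_DES than in WT_vehicle, against 20.7% of all 20102 genes tested. With the hybridization controls 6 were called higher, but so were 8345 of all genes. With arrays at a common median 4 were called higher, beside 3404 of all genes. Brd2, a bromodomain gene between H2-Oa and H2-DMa with no known role in presentation, was not called at 0.08 ± 0.07 (adjusted p = 0.336), though it rose by 0.44 with the hybridization controls (adjusted p = 0.0209). Class I pathway genes lie between H2-DMb1 and H2-Ob, and their differences were not tested against those of the class II genes. Psmb8 and Psmb9, immunoproteasome subunits, rose by 1.18 ± 0.15 and 0.52 ± 0.10. Tap1 and Tap2, which form the peptide transporter, rose by 1.08 ± 0.12 and 0.22 ± 0.08, Tap2 without a call with arrays at a common median (adjusted p = 0.131) or quantile normalized (adjusted p = 0.208). As deposited, the adjacent H2-Ab1, H2-Aa and H2-Eb1 were the only ones of these 14 with a difference of more than 2 on the log2 scale, and H2-DMb1 joined them at 2.31 with the hybridization controls. In aERKO none of the 14 was called by limma, at differences of -0.02 to 0.18.

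**Figure D3:**
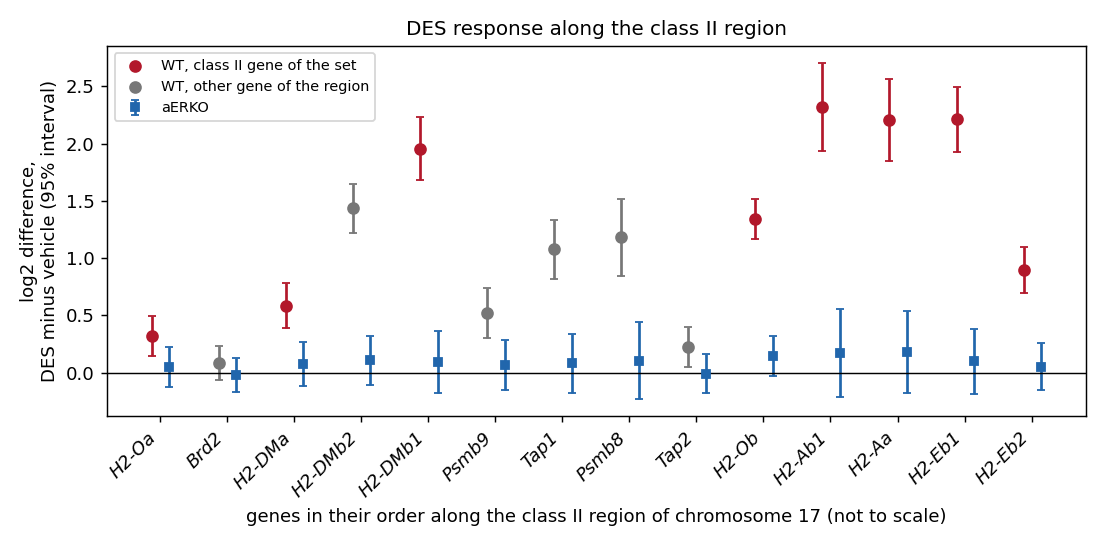
Log2 difference between DES and vehicle, with 95% intervals, for the 14 tested genes of the class II region in their order along chromosome 17 (spacing not to scale), in WT (circles, red for the set and grey for other genes) and aERKO (blue squares). The WT differences peak at H2-DMb1 (1.96) and at H2-Ab1 (2.32) and are near 0 at Brd2 (0.08), while the aERKO differences stay between -0.02 and 0.18.

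The factors that occupy the X and Y boxes had smaller differences than Ciita. Of 9 promoter factors and coactivators other than Ciita, 4 were called higher and 1 lower in WT after DES, around a median of 0.07. Over all 20102 genes tested, 20.7% were called higher and 4677 genes lower. Scaling to the hybridization controls gave 6 higher and 0 lower, beside 8345 and 350 of all genes. Scaling to a common median gave 4 and 3, beside 3404 and 7115 of all genes. Rfx5, which encodes the large subunit of the RFX complex at the X box, rose by 0.32 ± 0.07 (adjusted p = 0.00326). Its partners Rfxap (-0.15, adjusted p = 0.0816) and Rfxank (-0.13, adjusted p = 0.0989) did not pass, though both were called lower with arrays at a common median. Nfya, a subunit of the Y box factor NF-Y, rose by 0.39, and Creb1, a factor of the X2 box, rose by 0.40. The coactivator gene Crebbp rose by 0.47. The acetyltransferase gene Kat2b fell by 0.35, but its difference was 0.01 with the hybridization controls (adjusted p = 0.969).

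Most of the genes listed between interferon gamma and Ciita were higher as well. Of 8 tested, 6 rose and 0 fell (6 and 1 with arrays at a common median), where 20.7% of all genes tested were called higher. The list's median was 0.55. Irf1, a transcription factor that acts on the interferon-responsive Ciita promoter, rose by 1.58 ± 0.12 (adjusted p = 6.62e-07). The receptor gene Ifngr1 rose by 1.13 ± 0.12, the kinase gene Jak2 by 0.79 ± 0.12 and Ifngr2 by 0.63 ± 0.14. The inhibitor gene Socs1 (-0.10, adjusted p = 0.386) and Usf1 (-0.14, adjusted p = 0.0688), a factor of the Ciita promoter, did not pass, and Usf1 was called lower with arrays at a common median. Ifng itself averaged 5.42 in WT_DES and 5.01 in WT_vehicle, below the array medians on too many arrays to be tested.

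Endosomal enzymes that prepare class II peptides included the largest differences of the pathway. Of 12 processing and turnover genes, 10 were called higher and 1 lower around a median of 0.42 (7 and 1 after quantile normalization). As deposited, 20.7% of all genes tested were called higher. Ctss, the protease that trims the invariant chain in antigen-presenting cells, rose by 2.95 ± 0.16 (7.74-fold, adjusted p = 2.55e-08). The legumain gene Lgmn rose by 2.36 ± 0.12, the cathepsin gene Ctsz by 1.65 ± 0.11 and Ctsb by 0.94 ± 0.08. Ctsl, the counterpart of Ctss in thymic epithelium, was not called at 0.18 ± 0.12 (adjusted p = 0.228), but was called at 0.54 with the hybridization controls (adjusted p = 0.00481). Marchf1, the ubiquitin ligase that removes class II from the surface, rose by 0.40 ± 0.07. Its relative Marchf8 fell by 0.27 ± 0.07, with a difference of 0.09 and no call with the hybridization controls.

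Class I presentation and costimulation genes rose in WT at sizes below those of the I-A chains. Of 15 class I genes, 11 were called higher and 1 lower around a median of 0.84 (10 and 3 after quantile normalization). The share called higher over all genes tested was 20.7% as deposited. The largest differences were those of H2-M3 (1.72), H2-Q4 (1.61), H2-K1 (1.54) and H2-D1 (1.42), all class I heavy chains, which share sequence and may share probe signal. Their light chain gene B2m was not called, at -0.02 ± 0.07 (adjusted p = 0.860), and was called lower after quantile normalization (-0.15, adjusted p = 0.0309). Of 10 listed costimulation genes 7 were tested and 7 rose, with a median of 1.06. Pdcd1lg2, Tnfsf4 and Tnfsf9 were too dim to be tested. Among the genes that rose were Cd274, the PD-L1 gene (1.75 ± 0.11), the ICOS ligand gene Icosl (1.22 ± 0.12), Cd80 (1.22 ± 0.16) and Cd86 (1.06 ± 0.10). In WT_vehicle Cd80 and Cd86 lay only 0.11 and 0.46 above the mean of the background controls, so the sizes of their differences are uncertain. Both averaged below the array medians in every group outside WT_DES. They passed the filter through WT_DES, so that their rise was built in. In aERKO limma called none of the genes in these 5 pathway lists.

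Markers of the cell types that carry class II moved in the same arrays, and unevenly. Of 13 macrophage markers 12 rose and 1 fell, where 20.7% of all 20102 genes tested were called higher and 4677 genes lower. Their median was 2.12, close to the difference of the I-A chains. The mean log2 level over the list was 9.26 to 9.64 in WT_DES and 7.43 to 7.64 in WT_vehicle. Lyz2 rose by 4.13, Adgre1 by 3.14, C1qb by 2.57 and Csf1r by 2.37, while Mertk fell by 0.46, without a call with the hybridization controls (adjusted p = 0.631). Of 14 B cell markers 12 rose and 1 fell, with a median of 0.92 and list levels of 7.10 to 7.42 in WT_DES and 6.27 to 6.30 in WT_vehicle. Ms4a1, which encodes CD20, rose by 2.85 from a WT_vehicle level 0.62 below the mean of the background controls, and Bank1 rose by 2.38 from a level only 0.02 above it, so that neither size is exact. Ms4a1, Bank1, Cr2 and Fcer2a averaged below the array medians in every group outside WT_DES. These markers passed the filter through WT_DES, so that their rise was built in. Cxcr5 averaged 5.80 in WT_vehicle, 5.86 in aERKO_DES and 5.85 in aERKO_vehicle, also below the medians, so its rise may have been built in too. The B cell factor gene Pax5 was not called at 0.19 (adjusted p = 0.140), but was called at 0.55 with the hybridization controls. Blnk fell by 0.36, without a call with those controls (adjusted p = 0.997).

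Dendritic cell markers showed smaller differences, although several lay near background. Of 12 tested, 8 rose and 1 fell, with a median of 0.37 (7 and 2 with arrays at a common median). As deposited, 20.7% of all 20102 genes tested were called higher and 4677 genes lower. List levels were 6.69 to 6.87 in WT_DES and 6.48 to 6.59 in WT_vehicle. In WT_vehicle Clec9a, Flt3, Zbtb46, Siglech and Cd209a lay only 0.47 to 0.83 above the mean of the background controls. Batf3 (2.43) and Dpp4 (5.02) lay higher. The differences of the dim markers may be understated, so the list's median cannot be set directly against that of the macrophage markers. Itgax, which encodes CD11c and is also made by macrophages, rose by 0.96, Clec9a by 0.78 and Ly75 by 0.64. Clec9a averaged below the array medians in every group outside WT_DES, so that its rise was built into passing the filter. Flt3 averaged 5.97 in WT_vehicle, 6.02 in aERKO_DES and 5.99 in aERKO_vehicle, also below the medians, so its rise may have been built in too. Zbtb46 (0.14, adjusted p = 0.0929) and Batf3 (-0.12, adjusted p = 0.332), transcription factors of conventional dendritic cells, did not pass as deposited, though Zbtb46 was called at 0.50 with the hybridization controls. Xcr1 and Ccr9 lay below the array medians on too many arrays to be tested. The member that fell by 1.10, Dpp4, is also an epithelial surface peptidase. For the other immune lists, 9 of 12 T cell markers rose with a median of 0.41, 6 of 8 plasma cell markers rose and 1 fell with a median of 0.58, and 8 of 12 neutrophil markers rose with a median of 1.90. Several of these, among them Icos, Jchain, S100a8, Retnlg, Mmp8 and Ngp, averaged below the array medians in every group outside WT_DES. Their rise was thus built into passing the filter.

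Lists for the gland's own cell types held differences in both directions. Of 15 epithelial markers 9 rose and 4 fell, with a median of 0.30 (10 and 0 with the hybridization controls, 6 and 4 after quantile normalization). As deposited, 20.7% of all 20102 genes tested were called higher and 4677 genes lower. Of 9 endothelial markers 7 rose, with a median of 0.62. Among 11 smooth muscle and fibroblast markers the 5 matrix genes, such as Dcn (1.96) and Lum (3.47), rose. Of the contractile and muscle filament genes 5 fell, by 0.38 (Myh11) to 0.67 (Actg2), and 0 were called lower with the hybridization controls. The secretory genes that define the gland were high in every group, with list levels of 13.3 to 13.6 in WT_DES, 13.7 to 13.8 in WT_vehicle, 13.7 to 13.8 in aERKO_DES and 13.7 to 13.9 in aERKO_vehicle. In WT 8 of the 12 were called lower, at -0.93 to -0.24, which became 1 of 12 with the hybridization controls and 11 of 12 after quantile normalization. Over all genes tested, the counts called lower were 4677, 350 and 7131 in that order. The part of each cell type in the class II differences was not tested.

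**Figure D4:**
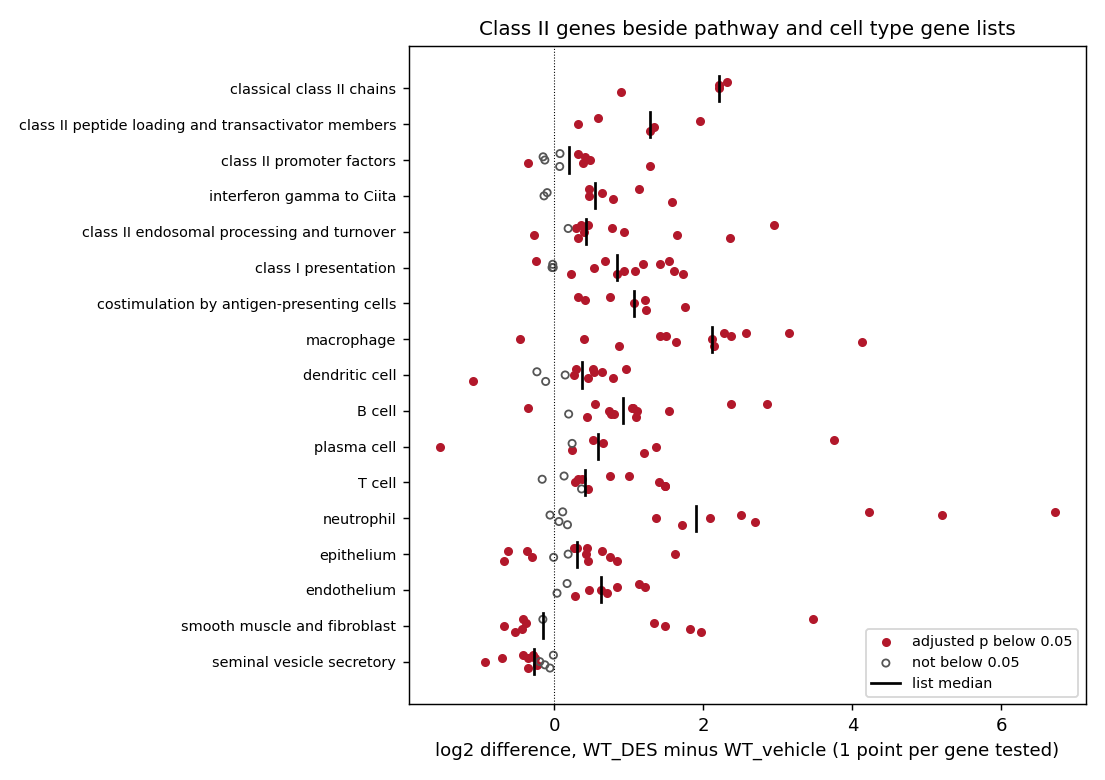
Log2 difference between WT_DES and WT_vehicle for every tested gene of the class II set and of the pathway and cell type lists, with a point per gene (filled where limma's adjusted p was below 0.05) and a line at the list median. The median of the classical chains, 2.21, lies near those of the macrophage (2.12) and neutrophil (1.90) markers. It lies above those of the B cell (0.92) and dendritic cell (0.37) markers, several of which were near background. The promoter factor list is drawn with Ciita and its median, 0.19, includes it.

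Other genes followed the profile of the large class II chains more closely than several members of the set did. Likeness was the root mean square distance, over the 12 arrays, between a gene's log2 values and the mean profile of H2-Ab1, H2-Aa and H2-Eb1, each centred on its own mean. Among 14675 tested genes outside the set, leaving out provisional names and antigen receptor segments, the 8 nearest were Gvin1 (0.124), Nckap1l (0.125), Cd68 (0.126), Ms4a6b (0.129), Arhgap15 (0.132), Rac2 (0.134), Dock2 (0.134) and Csf1r (0.137). The median distance was 1.01. Within the set H2-DMb1 stood at 0.144, H2-Ob at 0.435, Ciita at 0.439 and H2-Oa at 0.858. The 8 genes rose in WT by 2.04 to 2.38, and none was called by limma in aERKO, at differences of 0.03 to 0.14. They were picked for nearness to this profile, so these differences followed from the choice and are no separate result. Ms4a6b and Arhgap15 also averaged below the array medians in every group outside WT_DES, so that their rise was built into passing the filter. Since the WT_DES arrays stand apart from the other 9 for very many genes, the distance mainly reads the size of that step.

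Checks of the whole series bear on these values as follows. Esr1 read lower in aERKO than in WT arrays, at 6.90 ± 0.09 in aERKO_DES and 7.66 ± 0.10 in WT_DES, and at 6.99 ± 0.11 in aERKO_vehicle and 7.75 ± 0.08 in WT_vehicle (SD, n = 3 each). Array medians were 5.95 to 6.14. The 4 hybridization controls averaged 11.2 to 11.5 in WT_DES and 11.7 to 11.8 in WT_vehicle, and the background controls 4.70 to 4.99 in WT_DES and 5.25 to 5.34 in WT_vehicle. How arrays were scaled therefore moved the count of genes called: 4152 higher and 4677 lower in WT as deposited, 8345 and 350 with the hybridization controls, 3404 and 7115 with arrays at the same median. Between aERKO_DES and WT_DES 5529 were higher and 4954 lower as deposited, and 553 and 5825 with the hybridization controls. The interaction was called higher for 1841 and lower for 2838 genes as deposited, and for 133 and 2806 with these controls. The median difference of all genes was -0.05 as deposited and 0.31 with those controls. The class II median was 1.39 above that of all genes, a gap that shifting whole arrays cannot change. This median is the value of H2-Ob, which passed the filter only through WT_DES, so that a gap was built into it. Precision is limited by having 3 arrays a group.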

How the data were processed

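Values as deposited by the authors are on a log2 scale, with 1 value for each probe set and array. The submitters' processing notes name Affymetrix Expression Console and RMA, without versions, settings or a build. RMA subtracts background and equalizes the distributions of arrays. Per the labels' protocols, RNA was taken up in Trizol and 300 ng went into the biotin labelling kit.

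Of 72688 probe sets, 186 are array controls. The platform annotation pairs 30604 with exactly 1 symbol, 2146 with several and 39938 with none. Only the first kind was named, 1135 symbols were brought up to date through RefSeq's GRCm38.p6 table, and 429 of the resulting 30063 genes had several probe sets, of which the brightest on average was kept. Genes above the array's median on at least 3 of 12 arrays were tested, 20102 in all. limma 3.58.1 in R 4.3.3 (lmFit, eBayes) fitted the 4 group means jointly, two-sided, with 8 residual and 4.33 prior degrees of freedom. Benjamini-Hochberg adjustment ran over all genes tested, the threshold was 0.05 and intervals are at 95%. The code was tested on simulated data.

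The class II genes, the gene lists and the motifs were chosen with earlier results of these data known. The text names all members, up to 4 genes of each list with the largest called differences, and genes not called or near background. Other list genes it names were picked with their values in view. The likeness rule also listed Cd74 as a chain, which was left out because its probe set has several symbols. Alternatives varied the filter, the probe set rule, the moderation, the samples fitted, the scaling, a replicate block and each array in turn. Arrays are numbered 1 to 3 in each group, but 6 of 18 same-numbered pairs had deviations correlated above 0.1 (range -0.36 to 0.52), so the numbers were not taken to pair samples.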

Additional observations from a re-analysis of the deposited data

Results flagged for a closer look

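The response to neonatal DES differed between aERKO and WT, by the interaction term of limma at an adjusted p below 0.05, for 8 of the 9 class II genes. The response in aERKO minus that in WT was -2.15 for H2-Ab1, -2.11 for H2-Eb1, -2.02 for H2-Aa and -1.86 for H2-DMb1 on the log2 scale. It was -1.20 for H2-Ob, -1.18 for Ciita, -0.84 for H2-Eb2 and -0.51 for H2-DMa. H2-Ob and H2-Eb2 passed the filter on dim genes only through WT_DES, so that their values were built into the filter. Of all genes tested, 14.1% were called lower in this way, and the median over all genes was 0.03.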

How the results depend on the processing

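In WT, 9 of 9 class II genes were called higher under every alternative that tested all 9 and with each array left out in turn. The stricter filter removed H2-Eb2, H2-Oa and H2-Ob, and 6 of the remaining 6 were called. In aERKO, and between genotypes given vehicle, 0 were called under every alternative run. Of 921 values of members compared with the reported ones, 915 kept their direction and their side of the threshold, and the other 6 were all of H2-Oa. Its lower level in aERKO_DES than in WT_DES lost its call in the 5 settings named above, and its interaction gained one after quantile normalization (-0.32, adjusted p = 0.0194). With the replicate number as a block, 9 of 9 were called in WT and 8 of 9 in the interaction. Over all genes this block called 4502 higher and 5486 lower in WT, and 2705 and 3286 in the interaction, and it changed no call of a member. With arrays at a common median, the counts over all genes were 7974 higher and 3917 lower between aERKO_DES and WT_DES, and 3834 and 2407 in the interaction. Quantile normalization gave 3492 and 7131 in WT, 7686 and 3890 between aERKO_DES and WT_DES, and 4280 and 2583 in the interaction. Leaving out 1 array moved the number of genes called lower in WT to between 3028 (without replicate 2 of WT_DES) and 5430 (without replicate 3 of aERKO_DES), and the number higher in the interaction to between 1055 (without replicate 2 of WT_vehicle) and 2381 (without replicate 3 of WT_DES). The interaction was not run on only the groups compared, since it needs all 4. H2-Eb2, H2-Oa and H2-Ob lay close to the background controls outside WT_DES, and 3 arrays a group limit every value.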
